A study of Mus musculus with 3 samples.

Results

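Mitochondrial ribosomal protein genes were examined in 3 mouse RNA samples, and the set was defined by name alone. It holds every probe set of the array whose single gene symbol begins with Mrpl or Mrps followed by a digit, the gene names for proteins of the large and the small subunit of the mitochondrial ribosome. These were 85 of 28943 probe sets and gave 77 of 19938 measured genes, 48 named for the large and 29 for the small subunit. Each sample was 1 single-colour Affymetrix array of total RNA. The first sample was cultured mouse fibroblasts. The second, DiBA, was cultured cells, and the series concerns brown adipocytes made by direct conversion. For BA the labels name brown adipose tissue as the source and yet describe cultured cells, so whether tissue or cells were used is unsettled. The labels give no strain, age, sex, treatment or conversion factors for any sample. Each group had 1 array, so differences below lack a replicate check and describe these arrays only, and the number of arrays limits their precision.

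Mitochondria carry ribosomes of their own, which resemble those of bacteria and translate the few proteins that the mitochondrial genome encodes, all of them core subunits of the respiratory chain and ATP synthase. The ribosomal RNAs come from mitochondrial DNA, but every ribosomal protein is encoded in the nucleus, made in the cytosol and imported. Brown adipocytes are rich in mitochondria and in respiratory chain proteins, and they burn fuel to release heat through the uncoupling protein Ucp1.

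The arrays carried the markers of their labels. The summed intensity of 6 brown adipocyte markers, Ucp1 and Cidea among them, was 191 in fibroblasts, where all 6 lay under the median probe set intensity of 69.2, against 23667 in DiBA and 25268 in BA. All 6 were at least 2-fold higher in both DiBA and BA. In DiBA the largest were Cox8b (8593) and Cox7a1 (6464), isoforms found in muscle and brown fat, and Ucp1 had 4598. Elovl3 (76.7) and Dio2 (107.7) were the smallest in DiBA and lay near 69.2. Markers of fibroblasts summed to 19854 in fibroblasts, 6006 in DiBA and 3331 in BA. Markers of other cell types also differed, and whether cells of those types were present was not tested. Skeletal muscle markers, 7 of 7 at least 2-fold higher in both DiBA and BA than in fibroblasts, summed to 924, 10051 and 11467. Endothelial markers, 6 of 6 higher in both, summed to 404, 2768 and 3296. Macrophage markers, 6 of 6 higher in DiBA and 5 of 6 in BA, summed to 986, 2850 and 2645. No muscle, endothelial or macrophage marker lay under 69.2 in DiBA or BA, while 3, 4 and 1 did in fibroblasts. Of 4 erythrocyte markers only Alas2 was measured under its own name, at 26.0, 260.0 and 340.2. Cell cycle markers, 5 of 6 measured, were lower in DiBA and BA, with sums of 4025, 805 and 228. These markers differ between the arrays in the same direction as, or opposite to, the ribosomal protein genes below, and their part in those differences was not tested. Fewer cells of a type and less RNA per cell cannot be told apart in such samples.

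Genes for mitochondrial ribosomal proteins were higher in DiBA than in fibroblasts across most of the set. On the log2(intensity + 1) scale 72 of 77 genes lay above the fibroblast value, 4 had the identical intensity and 1, Mrps27, lay 0.0027 below. The median difference was 0.71 (1.64-fold), against a median of 0 over all genes. That 0 falls among the 37.0% of all genes with identical intensities, while 5758 genes were higher and 6799 lower. A difference was called at 2-fold or more where the higher array reached 69.2. By this rule 22 members were higher and 0 lower in DiBA, while 8.54% of all genes were higher and 7.67% lower. Among genes whose mean over the 3 arrays reached that level, as all 77 members did, 14.8% were at least 2-fold higher.

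Against the same fibroblasts, BA was also higher for most of the set. Here 74 members lay above the fibroblast value, 3 had the identical intensity and 0 lay below. The median difference was 0.82 (1.77-fold), again beside 0 for all genes, of which 34.5% were identical, 6352 higher and 6713 lower. By the 2-fold rule 34 members were higher and 0 lower, where 9.51% of all genes were higher and 9.59% lower, and 16.4% of genes at that mean level were higher. Both comparisons use 1 fibroblast array, so an error of that array would enter both. All 22 members called in DiBA were among the 34 called in BA. The same overlap was not counted over all genes, so it is not shown to be particular to the members. Many members sat close to the limit of 2-fold, with 13 between 0.9 and 1.1 (log2) in DiBA and 8 in BA. When each array was centred on its cytosolic ribosomal protein genes, whose medians were themselves lower in DiBA and BA, the counts became 46 and 53. This centring also raised the shares of all genes, to 12.5% higher in DiBA and 14.8% in BA.

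The members at least 2-fold higher in both comparisons were, besides genes described below, Mrpl13, Mrpl15, Mrpl16, Mrpl24, Mrpl34, Mrpl38, Mrpl41, Mrpl48 and Mrpl50 of the large subunit and Mrps9, Mrps21 and Mrps24 of the small one. Mrpl15, a conserved large-subunit protein, had 310.1 in fibroblasts, 858 in DiBA and 906 in BA, and Mrps24 had 345, 821 and 929. Mrpl13, Mrpl16, Mrpl48 and Mrpl50 lay just inside the limit in DiBA, at 1.01 to 1.03 on the log2 scale. Called in BA only were Mrpl2, Mrpl4, Mrpl9, Mrpl11, Mrpl14, Mrpl18, Mrpl23, Mrpl35, Mrpl47, Mrps12, Mrps28 and Mrps33. Mrpl9 and Mrpl11 lay just outside the limit in DiBA, at 1.995-fold and 1.993-fold, so a call in BA alone can rest on a small margin.

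**Figure D1:**
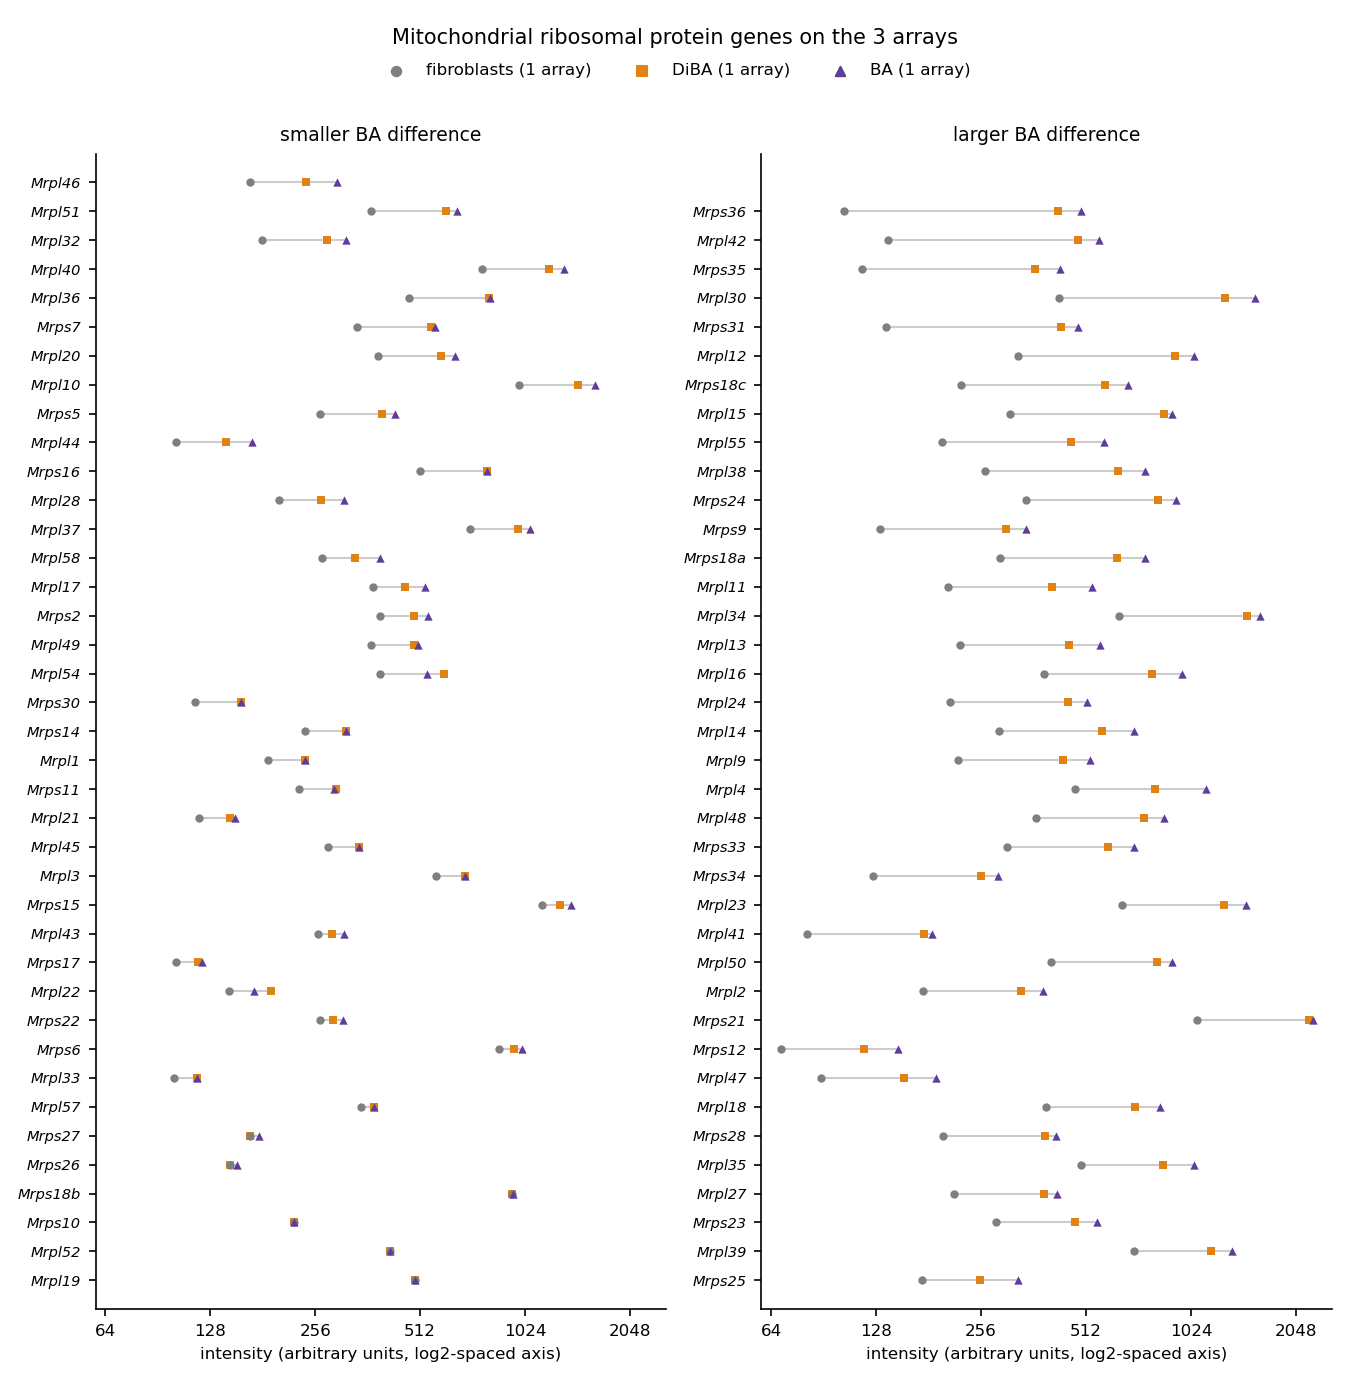
Intensity of each of the 77 genes on the fibroblast (circle), DiBA (square) and BA (triangle) array, on a log-spaced axis, in order of the BA difference with the smallest at the lower left; a grey line joins the lowest and highest array. DiBA lies strictly between fibroblasts and BA for 61 genes, and Mrpl19, Mrpl52 and Mrps10 have the same intensity on all 3 arrays.

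The large subunit holds the peptidyl transferase centre, where peptide bonds form, and the exit tunnel. Its 49 classed members had medians of 0.74 in DiBA and 0.82 in BA against fibroblasts, with 13 and 22 at least 2-fold higher. The 29 with a bacterial counterpart had medians of 0.79 and 1.09, and 7 and 16 of them were higher. The 20 classed as specific to mitochondrial ribosomes, Mrps18a among them, had medians of 0.57 and 0.75, with 6 higher in each comparison. Among genes at the same mean level, 14.8% were at least 2-fold higher in DiBA and 16.4% in BA. The contrast between the conserved and the added proteins was not tested.

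Stalk proteins recruit translation factors to the ribosome. Mrpl12, which forms the flexible part of the stalk, had an intensity of 327 in fibroblasts, 923 in DiBA and 1048 in BA, a 2.82-fold and a 3.20-fold difference. Mrpl11, at the base of the stalk, had 205, 410.1 and 532, or 1.99-fold and 2.58-fold. Mrpl10, which anchors Mrpl12, had 985, 1449 and 1626, or 1.47-fold and 1.65-fold, and did not reach 2-fold. The fibroblast array was thus the lowest and BA the highest for all 3 stalk genes, while the size of the step differed among them. DiBA lay strictly between fibroblasts and BA in 61 of the 77 members, so this order is not particular to the stalk.

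Mrpl30 and Mrpl42 were the large-subunit genes with the widest separation. Mrpl30, a conserved protein, had 429 in fibroblasts, 1285 in DiBA and 1567 in BA, a 2.99-fold and a 3.65-fold difference. Mrpl42, specific to mitochondria, had 138, 486 and 556, or 3.50-fold and 4.004-fold. Mrpl23, which lies beside the exit tunnel, was measured by 2 probe sets whose DiBA and BA differences were 0.98 and 1.19 in each, and their averaged intensities were 649, 1278 and 1477. Mrps18a, a large-subunit protein in spite of its name, had 290.4, 626 and 758, or 2.15-fold and 2.60-fold. Mrps30, likewise part of the large subunit, had 115 in fibroblasts and 157 on both other arrays.

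Several conserved or well studied large-subunit genes stayed below 2-fold. Mrpl3, next to the peptidyl transferase centre, had 567 in fibroblasts and 691 on both other arrays, a 1.22-fold difference. Mrpl45, which helps to hold the ribosome at the inner membrane, had 279 and 341 on DiBA and BA, and Mrpl33 had 101 and 117 on both. Mrpl58, a peptidyl-tRNA hydrolase that became a ribosomal protein, had 268, 333 and 392, and Mrpl44, related to ribonuclease III, had 102, 142 and 169. Mrpl32, whose maturation needs a protease of the inner membrane, had 181, 277 and 314, or 1.53-fold and 1.74-fold. Mrpl32 was thus close to the median of the set in BA, while Mrpl3, Mrpl33 and Mrpl45 were well under it. Mrpl19 had 495 and Mrpl52 had 419.7 on all 3 arrays.

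The small subunit binds the messenger RNA and holds the decoding centre. Its 26 classed members had medians of 0.62 in DiBA and 0.73 in BA against fibroblasts. At least 2-fold higher were 7 (26.9%) and 10 (38.5%), beside 14.8% and 16.4% of genes at the same mean level. Small-subunit members with a bacterial counterpart, 16 genes, had medians of 0.62 and 0.68 and 4 and 6 higher. Those classed as specific to mitochondria, 10 genes with Mrps18b among them, had medians of 0.65 and 0.94 and 3 and 4 higher. Their spread over genes was the wider, with SDs of 0.65 and 0.71 against 0.43 and 0.49.

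Mrps31 and Mrps35, both specific to mitochondria, led the small subunit. Mrps31 had 136 in fibroblasts, 434 in DiBA and 487 in BA, or 3.16-fold and 3.55-fold. Mrps35 had 117, 365 and 432, or 3.11-fold and 3.68-fold. Mrps34 had 125, 257 and 287, or 2.04-fold and 2.28-fold. Mrps12, a protein of the decoding centre, was the one gene under 69.2 in fibroblasts, at 68.4, with 118 in DiBA and 148 in BA, or 1.72-fold and 2.15-fold. In each of these genes, as in most members, the fibroblast array was lowest and BA highest.

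Others of the small subunit stayed below 2-fold, some of them flat. Mrps27, a protein with RNA-binding repeats, had 167, 166 and 176, and Mrps22 had 264, 288 and 308. Mrps10 had 222 on each array, and Mrps26 had 146 in fibroblasts and DiBA and 153 in BA. Mrps2 had 392, 493 and 538, Mrps7 had 337, 552 and 565, and Mrps16 had 510.5 in fibroblasts and 799 on the other arrays, with differences of at most 1.67-fold. As background, inherited defects in the human counterparts of Mrps2, Mrps7, Mrps16, Mrps22 and Mrps34 impair mitochondrial translation.

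The related genes Mrps18a, Mrps18b and Mrps18c differed from each other. They descend from a common bacterial protein and occupy different sites of the ribosome. Mrps18a and Mrps18b were nonetheless classed above as specific to mitochondria, and only Mrps18c as having a bacterial counterpart. Mrps18c had 225 in fibroblasts, 581 in DiBA and 678 in BA, or 2.58-fold and 3.00-fold. Mrps18b had 938, 939 and 945, a largest difference of 0.01 on the log2 scale. The first and last of the family were thus at least 2-fold higher in DiBA and BA, and the middle one was not. Whether probes of one cross-react with another was not tested.

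Mrps36 had the largest difference of all members in both comparisons, at 104 in fibroblasts, 424 in DiBA and 496 in BA, or 4.07-fold and 4.75-fold. In spite of its name its protein is a component of the 2-oxoglutarate dehydrogenase complex of the citric acid cycle and is not counted as a ribosomal subunit. Its 2 probe sets gave DiBA differences of 2.002 and 2.045 on the log2 scale. Without Mrps36 the remaining 76 genes had medians of 0.71 and 0.82 and 21 and 33 genes at least 2-fold higher. Mrpl55, not classed here, had 198, 463 and 578, or 2.33-fold and 2.91-fold.

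For 8 genes the array held 2 probe sets, whose log2 values were averaged. Their BA differences lay 0.14 apart for Mrps5, 0.085 for Mrps33 and 0.015 for Mrps36, and those of Mrpl23 were the same to the digits given above. The others disagreed more. For Mrpl51 the BA differences were 0.20 and 1.45, a spread of 1.25, so its averaged 1.77-fold value describes neither probe set. Spreads in BA were 0.54 for Mrpl27, 0.52 for Mrpl47 and 0.32 for Mrpl41. Mrpl27, Mrpl41, Mrpl47 and Mrpl51 were singled out here for that disagreement, and whether a probe set also reads a copy of the gene was not tested.

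DiBA and BA were close to each other, in the members as in most genes. By the 2-fold rule 0 members differed, which is near the share of all genes, with 0.973% higher and 0% lower in DiBA. This count had no test. The direction was uneven: 63 members were lower in DiBA than in BA, 11 had the identical intensity and 3 were higher. Of 11094 genes at the same mean level 4478 (40.4%) were lower in DiBA, 2913 identical and 3703 higher. The median difference was -0.14 beside a median of 0 for all genes, of which 45.0% were identical on the 2 arrays. Mrpl4, a protein near the exit tunnel, lay furthest apart, with 476 in fibroblasts, 807 in DiBA and 1133 in BA and a DiBA minus BA difference of -0.49. Mrpl11 followed at -0.37, Mrps25 at -0.36 and Mrpl55 and Mrps12 at -0.32 each. The 3 genes higher in DiBA were Mrpl22, with 145, 192 and 171, Mrpl54, with 394, 600.0 and 537, and Mrps11, with 229.7, 294 and 290.4, and their differences were 0.16, 0.16 and 0.02. Skeletal muscle markers, 7 of 7 lower in DiBA than in BA, had a median of -0.18 in the same comparison, and endothelial markers, 6 of 6 lower, had -0.29. Cell cycle markers, 5 of 5 higher in DiBA and 3 of them at least 2-fold, had a median of 1.93, and fibroblast markers, 7 of 7 higher and 1 of them (Fn1) at least 2-fold, had 0.42. Macrophage markers, 2 higher, 3 lower and 1 identical, had -0.01. The part of these markers in the members' difference was not tested. When each array was centred on its own median the members' median became -0.22, since the DiBA array had the higher overall median (71.5 against 67.7).

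Identical intensities were common in the deposited values and are no measure of precision. Over all genes 31.4% were identical on all 3 arrays and 45.0% between DiBA and BA. Where these identical values come from was not tested, so they limit how the closeness of DiBA and BA can be read. Among members, 3 genes were identical on all 3 arrays, against 11.9% of genes at the same mean level. DiBA and BA shared 11 values (14.3%), against 26.3% of those genes. Without the identical genes, the median was 0.75 in DiBA over 73 members and 0.93 in BA over 74 members, and -0.18 for DiBA minus BA over 66. The median of all genes without their identical values was not computed.

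Set beside related gene groups, the mitochondrial ribosomal proteins had medians between those of the respiratory chain and the cytosolic ribosome. For the counts below, the shares of all genes were 8.54% higher and 7.67% lower in DiBA, and 9.51% and 9.59% in BA. The 82 nuclear-encoded genes of the respiratory chain and ATP synthase, collected by name, had medians of 1.63 in DiBA and 1.76 in BA, with 67 and 69 at least 2-fold higher and 1 lower in each. Cox8b and Cox7a1, isoforms of cytochrome c oxidase found in muscle and brown fat, lay highest among them, at 7.76 and 7.17 in DiBA. The lower gene was Atp5g1, a copy of the ATP synthase c subunit, at -1.01 in DiBA and -1.27 in BA. Cytosolic ribosomal protein genes, 50 in all, had medians of -0.29 and -0.36, with 0 higher in either comparison and 1 and 3 lower. Their lowest was Rpl12, at -1.63 and -2.11. Genes of the cytosolic list are often shared with processed copies elsewhere in the genome, so their values are uncertain. Differences between these groups were not tested, as genes of 1 array are not replicates.

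**Figure D2:**
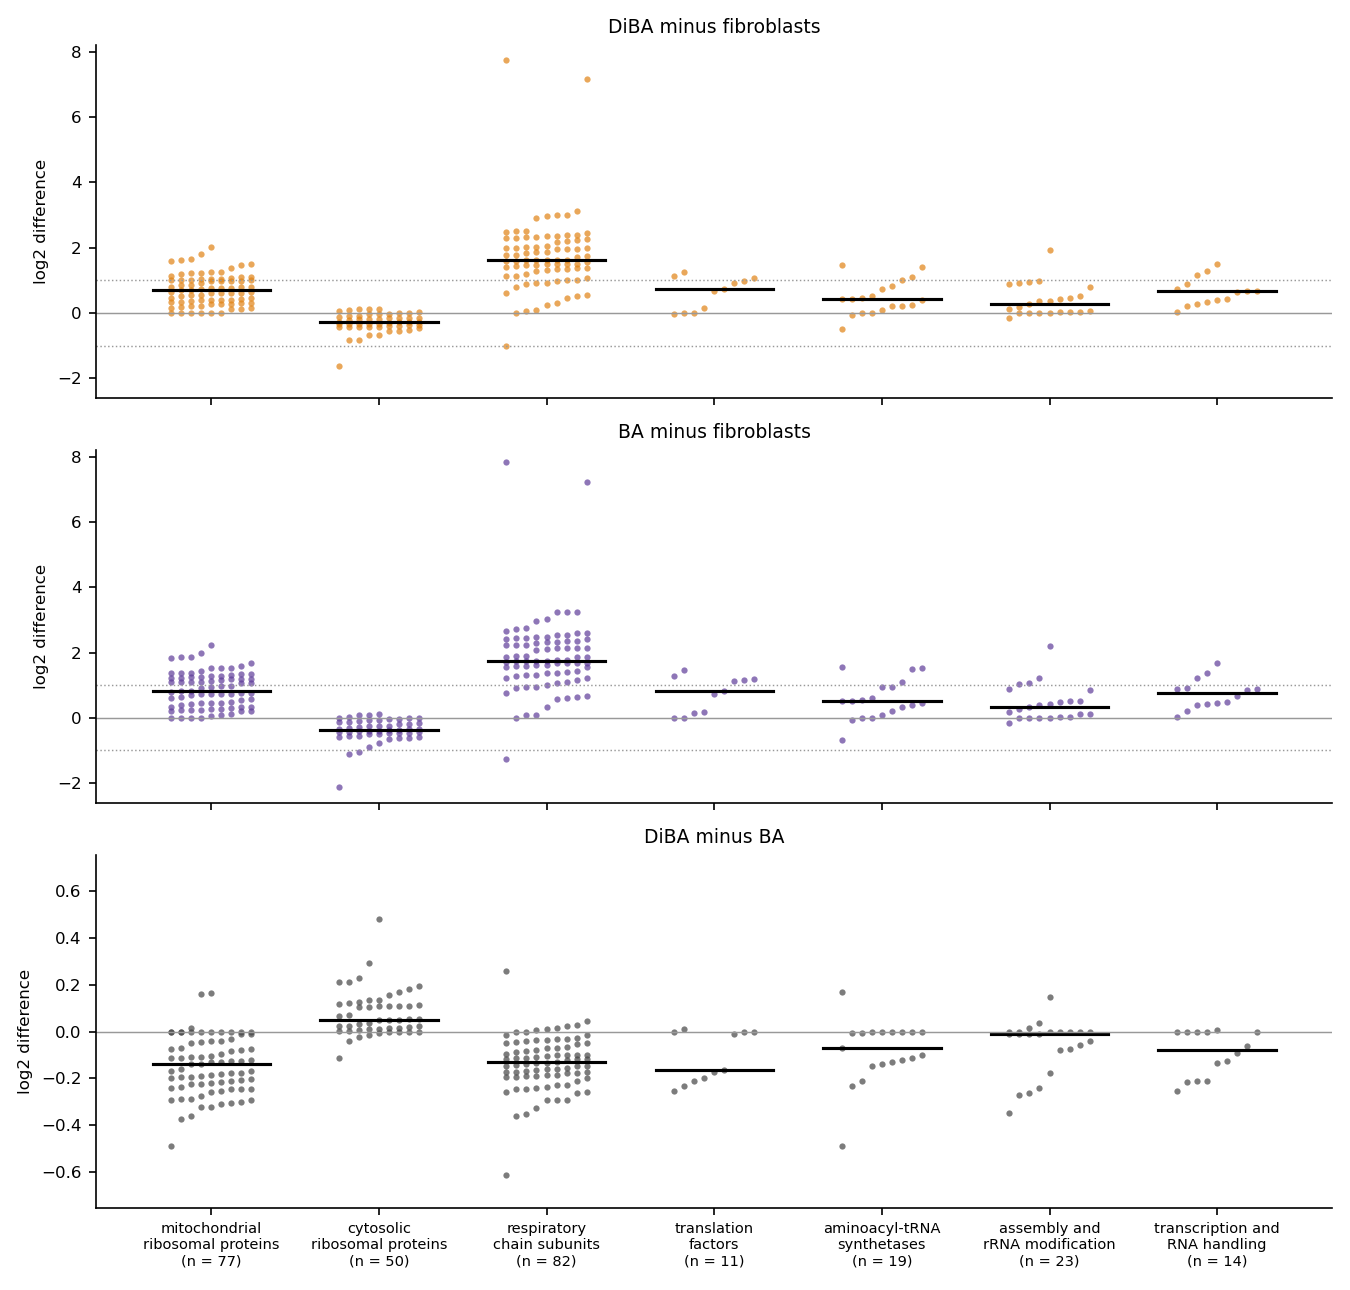
Log2 difference of each gene (point) for DiBA minus fibroblasts, BA minus fibroblasts and DiBA minus BA, by gene group, with the group median as a black bar, dotted lines at 2-fold and a narrower vertical scale in the bottom panel. The mitochondrial ribosomal proteins have medians of 0.71, 0.82 and -0.14, below the respiratory chain in the upper panels and close to it in the bottom panel, where its median is -0.13.

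The rest of the mitochondrial translation apparatus was covered by lists of other genes. Among genes at the same mean level as the members, 14.8% were at least 2-fold higher in DiBA and 16.4% in BA. Of 4 measured ribosomal proteins with other names, 1 was at least 2-fold higher in both comparisons: Chchd1, a small-subunit protein, at 238, 736 and 897, in fibroblasts, DiBA and BA. Dap3, Ptcd3 and Gadd45gip1 differed by at most 0.69. Of 11 translation factors, 3 (27.3%) were higher in DiBA and 5 (45.5%) in BA, with medians of 0.73 and 0.84. Gfm1, the elongation factor that moves the ribosome along, had 220.3, 531 and 609.6, and Tufm, the factor that delivers aminoacyl-tRNA, had 461, 878 and 1048. Mtif2, which starts translation, differed by 1.07 and 1.28, whereas Mtrf1l, a release factor, and Mtfmt, which formylates the initiator tRNA, were identical on all 3 arrays.

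Enzymes that load mitochondrial tRNAs with amino acids were measured for 19 genes. Of these, 4 (21.1%) were at least 2-fold higher in DiBA and the same number in BA, beside 14.8% and 16.4% of genes at the level threshold, with medians of 0.41 and 0.51. Gatb, a subunit of the enzyme that makes glutaminyl-tRNA, differed by 1.47 and 1.55, Fars2, the phenylalanine enzyme, by 1.41 and 1.52 and Vars2, the valine enzyme, by 1.01 and 1.501. Wars2, the tryptophan enzyme, was on the other side at -0.51 and -0.67. Of 23 genes for assembly of the ribosome and modification of its RNA, 1 (4.35%) was higher in DiBA and 4 (17.4%) in BA, with medians of 0.27 and 0.35. These counts are below the 14.8% and close to the 16.4% of genes at the level threshold. Mtg1, a GTPase of large-subunit assembly, stood out at 83.7, 322 and 386, or 1.93 and 2.19. Eral1, which binds the small-subunit RNA, differed by 0.95 and 1.22, and Rbfa, a small-subunit assembly factor, by 0.80 and 1.04.

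The list of mitochondrial transcription and RNA handling held 14 genes, with medians of 0.66 in DiBA and 0.76 in BA. The 2-fold limit was passed upwards by 14.8% (DiBA) and 16.4% (BA) of genes at the level threshold. In this list 3 (21.4%) passed it in each comparison, a contrast that was not tested. They were Tfb2m, a transcription factor of mitochondrial DNA, at 1.30 and 1.39, Taco1, a translational activator of a catalytic cytochrome c oxidase subunit, at 1.48 and 1.69, and Oxa1l, which inserts new proteins into the inner membrane, at 1.15 and 1.22. Tfam, which packages and transcribes mitochondrial DNA, differed by 0.89 and 0.88. The 13 proteins made by mitochondrial ribosomes were not named in the probe table and are not analysed here.

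Of 10 regulators known to act on nuclear genes for mitochondria, 4 were at least 2-fold higher and 2 lower in each comparison. Over all genes 8.54% were higher and 7.67% lower in DiBA, and 9.51% and 9.59% in BA. The coactivators Ppargc1a and Ppargc1b differed by 3.47 and 2.64 in DiBA and by 3.63 and 2.94 in BA. The nuclear receptors Esrrg and Esrra differed by 1.95 and 1.40 in DiBA and by 2.22 and 1.48 in BA. The lower genes were Myc, at -1.68 and -1.60, and Pprc1, a relative of Ppargc1a, at -1.51 and -2.08. Nrf1, which encodes nuclear respiratory factor 1, had 199 in fibroblasts and 126 on both other arrays. Gabpa and Gabpb1, which form a factor that binds ETS sites, had DiBA differences of 0.65 and -0.81. These are transcript levels, and whether any regulator acts on the ribosomal protein genes was not tested.

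Promoters were read next, since most members differed in the same direction. RefSeq windows from 250 bases before to 50 after the start of transcription (assembly GRCm38.p6) were found for 68 of the 77 genes, 74 windows in all. Both strands were searched for 7 motifs. These were the nuclear respiratory factor 1 (NRF1) motif, written as GCGCA and GCGC parted by any 1 base, the ETS motif CCGGAAG bound by GABPA, the YY1 motif AAGATGGC, the estrogen-related receptor motif CAAGGTCA, the E-box CACGTG, the TATA box TATAAA and the CCAAT box CCAAT. No motif contains another. A match is a description of the letters and not a binding site.

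NRF1 letters were found in 17.6% of member windows (13 of 74), against 4.60% of all 32851 windows and 23.9% of respiratory chain windows. The ETS motif was found in 33.8%, against 8.86% of all windows, 23.9% of respiratory chain and 34.0% of cytosolic ribosomal protein windows. For YY1 the shares were 16.2% in members and 2.75% in all windows. Member windows were richer in G and C, with a median of 58.5% against 52.7% over all windows, and the part of base composition in these shares was not tested. Estrogen-related receptor letters occurred in 2 member windows (2.70%, against 1.56% of all), E-boxes in 9.46% against 7.15%, TATA boxes in 6.76% against 13.6% and CCAAT boxes in 39.2% against 37.4%.

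**Figure D3:**
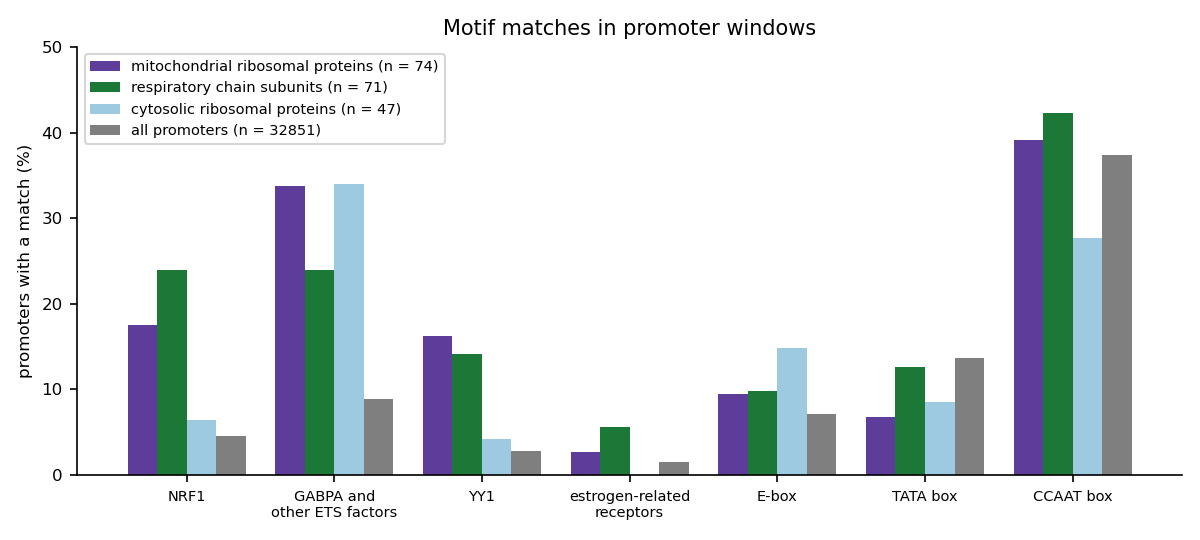
Share of promoter windows (percent) with at least 1 match to each of 7 motifs, for mitochondrial ribosomal proteins, respiratory chain subunits, cytosolic ribosomal proteins and all windows, with n as the number of windows. Members stand at 17.6%, 33.8% and 16.2% for NRF1, ETS and YY1, against 4.60%, 8.86% and 2.75% of all windows.

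Within the set, genes with and without each motif were compared by their median difference. The 13 genes with NRF1 letters had a median BA difference of 0.94, against 0.78 for the 55 without. The 25 genes with the ETS motif had 0.55, against 0.82 for the 43 without. The 12 genes with YY1 letters had 0.79, against 0.80 for 56. The widest gap was for the TATA box, at 1.22 in only 5 genes against 0.78 in the 63 without, with DiBA medians of 1.02 and 0.64. For the CCAAT box the BA medians were 0.85 in 26 genes and 0.76 in 42, for the E-box 0.78 in 5 and 0.80 in 63, and for the estrogen-related receptor letters 0.70 in 2 and 0.79 in 66. These medians were not tested. The NRF1 matches are printed with 5 bases on either side to show how alike they are, with the motif in capitals. They are written 5′ to 3′ on the gene's strand in GRCm38.p6, where a match on the other strand reads GCGC and TGCGC parted by any 1 base:
Mrpl12, chr11:120484551-120484570, plus strand: tctccGCGCCTGCGCgtcgc
Mrpl14, chr17:45686348-45686367, plus strand: ctggcGCGCAGGCGCagcgt
Mrpl17, chr7:105811122-105811141, minus strand: ctgatGCGCACGCGCaaacg
Mrpl30, chr1:37890389-37890408, plus strand: ccgctGCGCCTGCGCtgtct
Mrpl32, chr13:14613110-14613129, minus strand: cccttGCGCATGCGCaagag
Mrpl39, chr16:84735355-84735374, minus strand: gaggcGCGCATGCGCccccg
Mrpl44, chr1:79775978-79775997, plus strand: cacttGCGCACGCGCagtac
Mrpl45, chr11:97315591-97315610, plus strand: ctcctGCGCAGGCGCagctg
Mrpl45, chr11:97315673-97315692, plus strand: tcattGCGCACGCGCgaacc
Mrpl45, chr11:97315726-97315745, plus strand: agcgtGCGCGTGCGCgcgac
Mrpl57, chr14:57826177-57826196, plus strand: atcctGCGCAGGCGCagaag
Mrpl9, chr3:94443303-94443322, plus strand: cagctGCGCATGCGCggggt
Mrps21, chr3:95871591-95871610, minus strand: gtccaGCGCCTGCGCtcagc
Mrps26, chr2:130563750-130563769, plus strand: gccggGCGCAGGCGCaggcg
Mrps26, chr2:130563756-130563775, plus strand: cgcagGCGCAGGCGCtggct
Mrps9, chr1:42851223-42851242, plus strand: ggtctGCGCCTGCGCagtct

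In most of the 13 genes the match began shortly before the start, such as 81 bases in Mrpl12, 83 in Mrpl30 and 28 in Mrpl9. These genes span nearly the whole range of differences. Mrpl30 and Mrpl12 had BA differences of 1.87 and 1.68, Mrps9 1.39 and Mrpl9 1.25, while Mrps26, with 2 overlapping matches, had 0.07, Mrpl57 0.13 and Mrpl45, with 3 matches, 0.29. Genes with the same letters near the start were therefore among both the largest and the smallest differences.

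To show the promoters at both ends of that range, the 150 bases before the start are printed for the 4 genes with the largest and the 2 with the smallest BA difference among those with 1 window each, 5′ to 3′ on the gene's strand in GRCm38.p6, with matches to any of the motifs in capitals. A CCAAT or ETS match on the other strand reads ATTGG or CTTCCGG.
Mrps36, chr13:100744660-100744809, minus strand: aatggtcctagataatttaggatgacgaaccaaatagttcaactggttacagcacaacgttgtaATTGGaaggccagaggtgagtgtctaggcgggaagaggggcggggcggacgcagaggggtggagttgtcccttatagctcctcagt
Mrpl42, chr10:95501950-95502099, minus strand: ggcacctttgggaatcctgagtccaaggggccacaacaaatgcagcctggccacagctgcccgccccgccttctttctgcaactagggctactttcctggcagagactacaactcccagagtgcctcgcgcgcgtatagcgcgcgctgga
Mrpl30, chr1:37890327-37890476, plus strand: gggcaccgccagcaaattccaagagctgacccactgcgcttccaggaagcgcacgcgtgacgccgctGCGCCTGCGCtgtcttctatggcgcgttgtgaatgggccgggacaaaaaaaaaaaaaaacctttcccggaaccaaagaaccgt
Mrps31, chr8:22411190-22411339, plus strand: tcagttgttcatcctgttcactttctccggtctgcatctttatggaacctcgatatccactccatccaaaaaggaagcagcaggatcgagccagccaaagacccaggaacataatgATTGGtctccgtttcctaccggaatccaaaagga
Mrpl52, chr14:54426759-54426908, plus strand: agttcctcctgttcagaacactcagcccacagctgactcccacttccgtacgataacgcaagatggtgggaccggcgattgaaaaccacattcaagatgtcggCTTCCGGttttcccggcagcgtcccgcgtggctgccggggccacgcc
Mrps10, chr17:47369047-47369196, plus strand: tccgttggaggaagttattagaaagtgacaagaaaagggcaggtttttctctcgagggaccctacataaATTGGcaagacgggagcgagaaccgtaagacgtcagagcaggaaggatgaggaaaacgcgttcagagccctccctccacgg

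Mrps36, Mrps31 and Mrps10 hold a CCAAT box in this stretch, Mrpl30 holds the NRF1 letters and Mrpl52 an ETS motif, while Mrpl42 holds none of the 7 motifs here. The first 4 genes printed had BA differences of 2.25, 2.001, 1.87 and 1.83, and the last 2, Mrpl52 and Mrps10, had 0.

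Many members also share their start region with a gene on the other strand. This was examined after the values were seen. A divergent neighbour with its start within 1000 bases was listed for 26 of 68 members (38.2%), against 14.4% of the 15614 measured genes with a window. Mrpl46 and Mrps11 are each other's neighbour, with starts 42 bases apart and BA differences of 0.82 and 0.34. Outside the set 22 neighbours were measured. Their median BA difference was 0, as over all genes, with 1 at least 2-fold higher and 3 lower, where 9.51% of all genes were higher and 9.59% lower. The 22 members facing them had a median of 0.79 with 8 higher. The member had the higher BA difference in 19 of 22 pairs and the higher DiBA difference in 18. In BA 74 of the 77 members lay above the fibroblast value and the median of all genes was 0. Counts of this kind were therefore largely set beforehand.

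**Figure D4:**
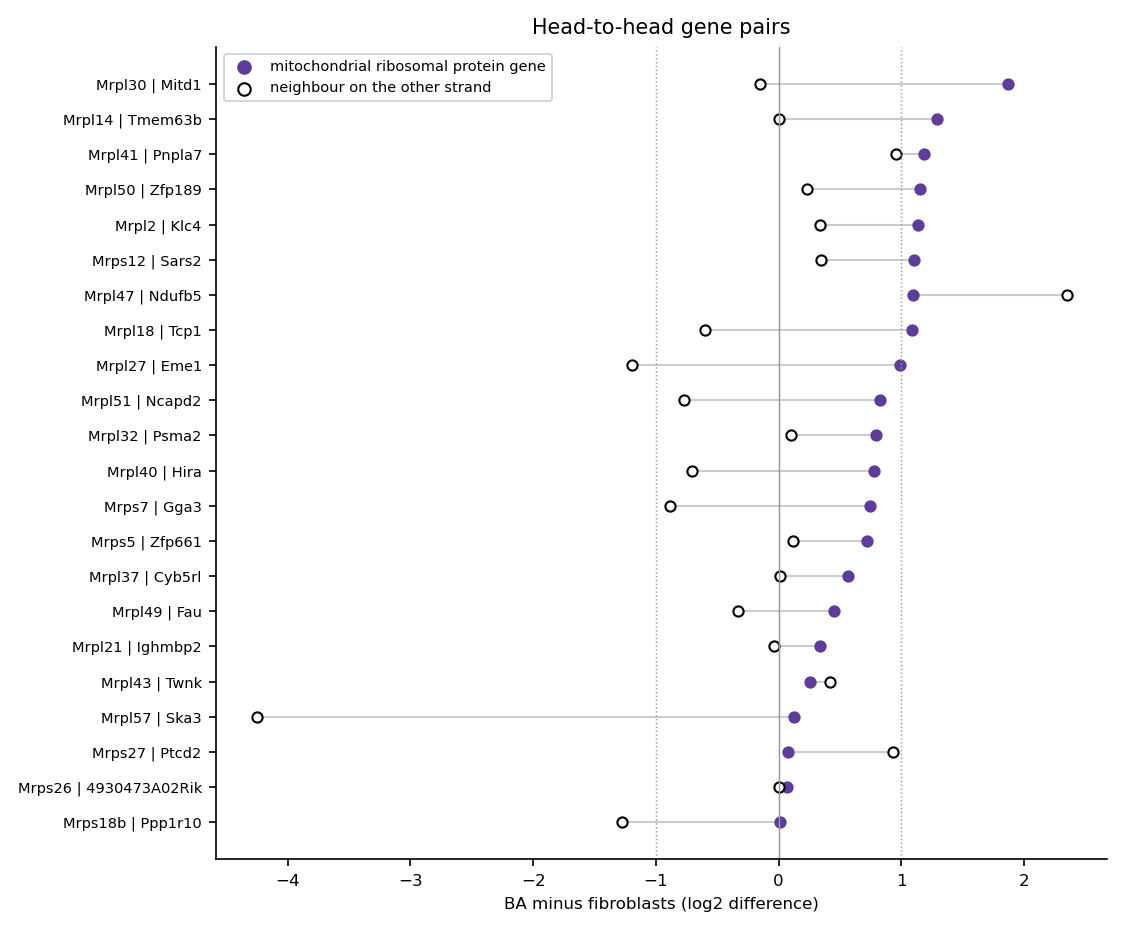
BA minus fibroblasts difference (log2) of each mitochondrial ribosomal protein gene (filled) and of its measured divergent neighbour (open), 1 row per pair, with dotted lines at 2-fold. The filled point lies to the right in 19 of 22 pairs, the exceptions being Mrpl47, Mrps27 and Mrpl43.

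Pairs with a short gap could differ widely. Mrpl30 and Mitd1, with starts 66 bases apart, had BA differences of 1.87 and -0.15, and Mitd1 had 135, 129.9 and 121 in fibroblasts, DiBA and BA. Mrps12 and Sars2, the mitochondrial serine enzyme, had 1.102 and 0.34 across 147 bases. Mrpl57 had 0.13 and its neighbour Ska3, a kinetochore gene, -4.25, at 219.6, 39.5 and 10.6. Of the 3 exceptions, Mrpl47 faced Ndufb5, a subunit of respiratory complex I, at 2.35, Mrps27 faced Ptcd2 at 0.93, and Mrpl43 faced Twnk, the mitochondrial DNA helicase, at 0.41. The partners named were chosen after their values were seen, and no difference within a pair was tested.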

How the data were processed

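Total RNA of 3 mouse samples was hybridised to 3 arrays, 1 per group, with groups taken from the titles. The authors deposited 1 linear intensity per probe set, and the submitters' processing notes name Affymetrix Expression Console. How probes were summarised, corrected for background and normalised is not given in the sources used. Of 28943 probe sets, 21789 had 1 gene symbol in the platform's probe table, 1621 had several and 5533 were not listed, and the last 2 kinds named no gene. All 85 member probe sets had a gene identifier in RefSeq's GRCm38.p6 table, which changed 0 of their symbols. Gene values were means of log2(intensity + 1) over probe sets, which understates folds of dim genes. Calls needed 2-fold and the higher array at 69.2 or more, which is the middle value of every probe set on the 3 arrays. All 77 members reached it on at least 1 array and 76 on every array. With 1 array per group no p-value was computed. The members and gene lists were chosen with earlier results of these data known. The cytosolic list was narrowed to ribosomal proteins proper after the files were read. Members named in the text are 22 fixed genes and the 5 highest and 5 lowest of each comparison, 37 in all, and others were chosen after their values were seen. The call steps were tested on simulated data. Python 3.11.15, numpy 2.4.6, pandas 2.3.3 and scipy 1.17.1 were used.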

Additional observations from a re-analysis of the deposited data

How the results depend on the processing

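Alternatives covered 2 ways of centring the arrays, quantile normalization, the level filter, a floor, the pseudocount, the choice of probe set, the fold threshold and identical values. Over all of them 0 members were called lower in any comparison, and 0 were called between DiBA and BA. Centring each array on the cytosolic ribosomal proteins raised the DiBA median from 0.71 to 1.12 and its count from 22 to 46, and the BA median from 0.82 to 1.33 and its count from 34 to 53. By construction it also moved the median of all genes by 0.41 and 0.51, so relative to all genes the members' medians did not change. With it, 12.5% of all genes were higher and 4.22% lower in DiBA, against 8.54% and 7.67%, and 14.8% and 5.47% in BA, against 9.51% and 9.59%. The DiBA minus BA median of -0.14 became -0.22 with arrays centred on their medians and -0.24 with the cytosolic ribosomal centring, where the median of all genes became -0.08 and -0.10. At 1.5-fold 46 members were higher in DiBA, where 12.5% of all genes were. At 4-fold 1 member was higher in DiBA (Mrps36) and 2 in BA (Mrps36 and Mrpl42). At 4-fold 3.67% of all genes were higher in DiBA and 4.32% in BA, larger shares than among the 77 members. The other settings kept the counts between 16 and 25 in DiBA and between 31 and 50 in BA. The 50 was reached at 1.5-fold, where 13.4% of all genes were higher in BA. Values of single named genes crossed the 2-fold limit upwards in 17 and downwards in 11 of their alternatives in DiBA, and in 13 and 14 in BA, and 0 changed direction past the limit. No paired analysis was possible because each group holds 1 array, and no array could be left out. In fibroblasts the only probe set of Mrps12 and 1 probe set each of Mrpl41 (44.4) and Mrpl47 (66.5) lay under 69.2. A floor there gave counts of 21 in DiBA and 33 in BA.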

Other observations

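One further ribosomal protein gene, Mrpl53, shares its only listed probe set with Ccdc142 and was left out of the set for that reason. Its intensities were 167 (fibroblasts), 178 (DiBA) and 178 (BA), which cannot be assigned to either gene.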
